A study of Mus musculus with 42 samples.

Results

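The clonotypes described here are rearranged T-cell receptor β (TCRβ) chains whose CDR3, the loop made where V, D and J segments are joined, has a hydrophobic residue at both position 6 and position 7. Members were the deposited sequences whose CDR3 reads through without a stop or frame shift, runs over 8 to 20 residues from a Cys (position 1) to a Phe, with I, L, V, F, M, W, Y or C at both positions. Of 31576 sequences in 5 libraries, 26765 met the conditions on start, end and length and are called eligible, and 246 of these, 0.919%, carried a hydrophobic pair. The rule used residues alone and no read number, lineage, organ or genotype. The condition on the end and on the longest length removed no sequence with such a pair that starts with Cys. Just outside the length limits lay 3 sequences of 7 residues and 17 of more than 20.

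The study sorted T cells from thymus, spleen and lung of Foxn1Cre x NIKfl/fl mice, called KO, and of Foxn1Cre x NIKfl/wt mice, called WT. All these mice carry the Cre driven by Foxn1, a gene of thymic epithelial cells, and the WT mice keep 1 floxed NIK allele, so they are heterozygous floxed controls. The series has 42 samples of 14 groups, and 5 libraries from 4 mice, each the sole one of its group, were analysed here. These were thymus regulatory T cells (Tregs, CD4+CD25hi) of KO mouse 618, spleen CD8 T cells (CD8+CD25-CD62L+) of KO mouse 617, lung CD4 T cells (CD4+CD25-CD62L+) of KO mouse 617, spleen CD4 T cells of the same gate from KO mouse 597, and spleen CD8 T cells of WT mouse 614. Ages are not given in the labels. The assay reads receptor chains only, so neither the sorted cell types nor the deletion, which lies outside T cells, could be checked against marker genes. With 1 library a group there is no replicate and no test of a condition: intervals below are 95% intervals for counting error, and each comparison is between libraries that also differ in mouse.

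In TCRβ chains the first residues of CDR3 come from the V segment and the last from the J segment, while the middle is built from a D segment and from bases trimmed or added at the joins. The middle of the loop lies over the peptide that the receptor reads on an MHC molecule. In mice, hydrophobic residues at positions 6 and 7 are known to favour receptors that react to self-peptides, and Tregs are a lineage selected by such recognition. NIK, the NF-κB-inducing kinase, is needed for the medullary thymic epithelium, which displays self-antigens to developing T cells.

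The most read members show how such a pair is made and are given below from 5′ to 3′, with codons 6 and 7 in capitals. The first 10 are the leading 2 members by reads of each library, except that for KO spleen CD4 the next in rank stands in for its second, which repeats the first sequence shown. The last 2 show another form of a repeated CDR3 and a CDR3 of 8 residues, and were chosen after their values were seen. All derive from the Trb locus on chromosome 6.
KO Treg, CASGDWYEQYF, TRBV13-2 and TRBJ2-7: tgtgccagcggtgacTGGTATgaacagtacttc
KO Treg, second by reads, TRBV19 and TRBJ2-1: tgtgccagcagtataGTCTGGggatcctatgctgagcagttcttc
KO spleen CD8, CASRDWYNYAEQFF, TRBV12-2 and TRBJ2-1: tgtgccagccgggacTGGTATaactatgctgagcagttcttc
KO spleen CD8, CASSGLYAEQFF, TRBV16 and TRBJ2-1: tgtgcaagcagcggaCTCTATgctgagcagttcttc
KO lung CD4, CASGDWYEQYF, TRBV13-2 and TRBJ2-7: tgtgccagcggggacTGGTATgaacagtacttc
KO lung CD4, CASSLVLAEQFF, TRBV16 and TRBJ2-1: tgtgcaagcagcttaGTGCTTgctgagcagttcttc
KO spleen CD4, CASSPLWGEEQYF, TRBV5 and TRBJ2-7: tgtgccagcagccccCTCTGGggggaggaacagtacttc
KO spleen CD4, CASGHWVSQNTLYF, TRBV13-2 and TRBJ2-4: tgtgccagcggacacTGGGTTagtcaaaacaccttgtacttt
WT spleen CD8, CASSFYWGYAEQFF, TRBV14 and TRBJ2-1: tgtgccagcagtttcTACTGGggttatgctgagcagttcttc
WT spleen CD8, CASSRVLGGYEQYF, TRBV17 and TRBJ2-7: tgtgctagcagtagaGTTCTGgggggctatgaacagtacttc
WT spleen CD8, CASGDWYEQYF, TRBV13-2 and TRBJ2-7: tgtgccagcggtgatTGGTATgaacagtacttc
KO Treg, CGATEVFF, TRBV20 and TRBJ1-1: tgtggtgctacagaaGTCTTCttt
TGG, the codon for Trp, is 1 of the 2 capital codons in most of these sequences, and the hydrophobic codon beside it varies.

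The libraries held between 98655 and 205882 reads and between 1609 and 3494 eligible clonotypes in the 4 KO libraries, against 16038 in the WT spleen CD8 library. Clonotypes, meaning distinct nucleotide CDR3s with their V and J, were counted once each, since no molecular identifier is stated and 1 molecule can give many reads by PCR. Some clonotypes were listed in more than 1 library with the same bases, V and J. This held for 502 of 2505 eligible clonotypes of KO spleen CD8 and 481 of 3119 of KO lung CD4, both of mouse 617, which had 203 in common although they are labelled CD8 and CD4. Carry-over between these libraries or sorts was not tested. Among the 246 members 7 were listed in another library too, against 2134 of all 26765 eligible clonotypes (7.97%). By library, 4.98% of eligible clonotypes were so listed in Tregs, 15.6% in KO spleen CD4 and 4.53% in WT spleen CD8. Most members come from Tregs and WT spleen CD8, where 1 of 47 and 2 of 160 members were so listed. In KO spleen CD8, KO lung CD4 and KO spleen CD4 this held for 1 of 13, 1 of 14 and 2 of 12 members. Whether the mix of libraries accounts for the low number among members was not tested. The shares without such clonotypes are given at the end of the comparisons.

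Hydrophobic pairs were most frequent in KO thymus Tregs, at 1.35% of eligible clonotypes (47 of 3494, exact Clopper-Pearson interval 0.99 to 1.78). They made up 0.519% in KO spleen CD8 cells (13 of 2505, 0.277 to 0.886), 0.449% in KO lung CD4 cells (14 of 3119, 0.246 to 0.752) and 0.746% in KO spleen CD4 cells (12 of 1609, 0.386 to 1.3). The WT spleen CD8 library had 0.998% (160 of 16038, 0.85 to 1.16). The intervals of Tregs and of KO lung CD4 cells did not overlap, nor did those of Tregs and KO spleen CD8 cells. Those of WT spleen CD8 and KO lung CD4 cells did not overlap either. The Treg interval overlapped those of KO spleen CD4 and WT spleen CD8, and those of the 3 peripheral KO libraries overlapped one another. The Treg share was 2.45% at 1 read (8 of 326) and 2.14% at 2 to 9 reads (7 of 327). WT spleen CD8 had 0.881% and 0.842% there. At 10 to 99 reads the Treg share was 1.04% (24 of 2305), below the 1.27% of WT spleen CD8 (72 of 5678). At 100 or more reads it was 1.49% (8 of 536), with 0 of 19 in WT spleen CD8. Most Treg members of 1 read lie 1 base from a more read Treg member. Clonotypes 1 base from a more read one of the library, whatever their V and J, were also left out. The share over all read numbers was then 1.24% in Tregs and 0.978% in WT spleen CD8. Shares by read number were not computed without such clonotypes.

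**Figure D1:**
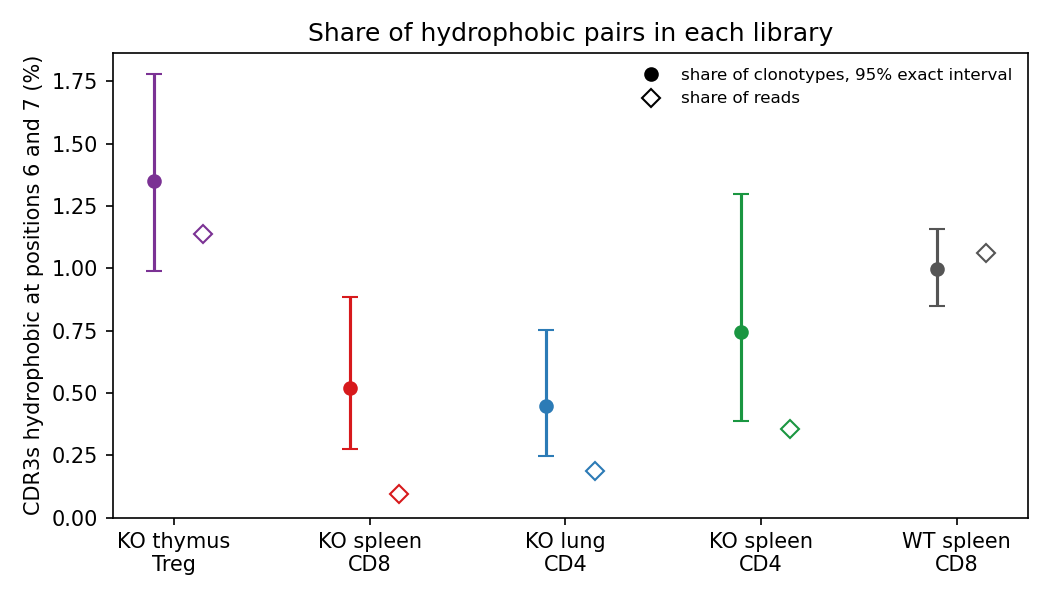
Share of CDR3s with hydrophobic residues at positions 6 and 7 (y axis, percent) in the 5 libraries (x axis), 1 library a group. Filled circles with bars are shares of clonotypes with 95% exact intervals and open diamonds are shares of reads. Tregs and WT spleen CD8 cells lie near 1% by either count, and the 3 peripheral KO libraries lie lower, more so by reads.

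Position by position the libraries differed less than the pairs did. A hydrophobic residue stood at position 6 in 12.8% of eligible Treg clonotypes, 14.3% in KO spleen CD8, 11.9% in KO lung CD4, 13.2% in KO spleen CD4 and 13% in WT spleen CD8. At position 7 the shares were 16.7%, 14%, 12.8%, 13.9% and 16.6% in the same order of libraries. Position 7, not position 6, thus had its highest shares in the 2 libraries with the most pairs. Just outside the rule, with position 6 hydrophobic but not position 7, were 401 Treg, 345 KO spleen CD8, 356 KO lung CD4, 200 KO spleen CD4 and 1920 WT spleen CD8 clonotypes. With position 7 hydrophobic alone there were 535, 337, 385, 212 and 2505. Pairs were rarer in every library than the product of its 2 position shares, at 0.63 times that product in Tregs, 0.26 in KO spleen CD8, 0.296 in KO lung CD4, 0.407 in KO spleen CD4 and 0.463 in WT spleen CD8.

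The residues of the pair were few in kind. Of 64 possible pairs, 30 were seen, and the 10 most frequent were Val-Trp (41 clonotypes), Tyr-Trp (39), Val-Leu (29), Trp-Tyr (20), Trp-Val (17), Trp after Leu (12), Leu-Val (11), Leu-Tyr (11), Val-Phe (10) and Trp-Leu (6). Trp, the bulkiest residue, was part of 152 of the 246 pairs, or 61.8%, and 194 pairs held Trp, Tyr or Phe, the aromatic residues. Cys, whose side chain can form disulphide bonds, was in 2 pairs, 1 of KO spleen CD4 and 1 of WT spleen CD8. Of the pairs with Trp at position 7, which numbered 107, 93 were followed by Gly at position 8. Gly stood at position 8 in 54.1% of members and 34.2% of all eligible clonotypes. Before the pair, at position 5, Leu was found in 31.3% of members against 23.4% of eligible clonotypes and Asp in 24.4% against 16.1%.

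Trp at either position was far more common than the pairs that held it, and Gly usually followed it. Of 1453 eligible clonotypes with Trp at position 6, 81.8% had Gly at position 7 and 47, or 3.23%, were members. Where Trp stood at position 7 (1775 clonotypes), Asp preceded it in 75.2% and 107, or 6.03%, were members. By library, 9.87% of the clonotypes with Trp at position 7 were members in Tregs (23 of 233), against 1.94% in KO spleen CD8 (3 of 155), 2.55% in KO lung CD4 (4 of 157), 4.81% in KO spleen CD4 (5 of 104) and 6.39% in WT spleen CD8 (72 of 1126). The residue before that Trp was Asp in 57.9% of the Treg cases, and in 87.1%, 87.9%, 84.6% and 74.5% of those in the other libraries in the same order.

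Nearly all members used a J segment of the second cluster. TRBJ2 segments were joined in 231 of the 246 members, or 93.9%, and in 68.2% of eligible clonotypes. The share of hydrophobic pairs was 1.27% among TRBJ2 clonotypes (231 of 18260, interval 1.11 to 1.44) and 0.176% among TRBJ1 clonotypes (15 of 8505, 0.0987 to 0.291). Among TRBJ2 clonotypes it was 1.73% in Tregs, 0.733% in KO spleen CD8, 0.665% in KO lung CD4, 1.14% in KO spleen CD4 and 1.36% in WT spleen CD8. Among TRBJ1 clonotypes it was 0.469% in Tregs (5 of 1067), 0.115% in KO spleen CD8 (1 of 867), 0.086% in KO lung CD4 (1 of 1163) and 0.165% in WT spleen CD8 (8 of 4848), and none of 560 was a member in KO spleen CD4, which allows up to 0.657% by the exact interval. In each library the TRBJ2 share was the higher of the 2.

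**Figure D2:**
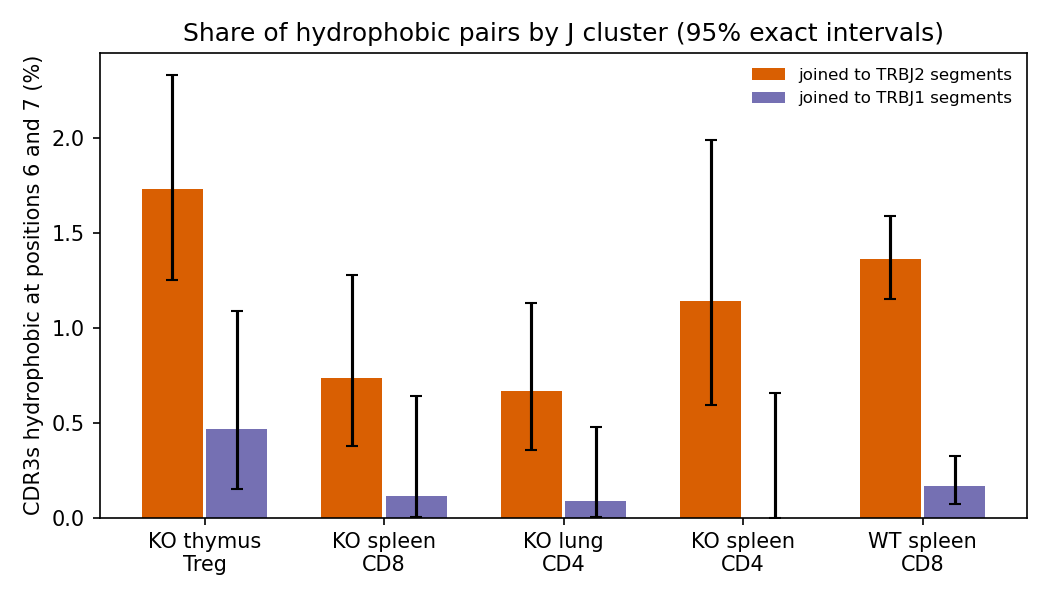
Share of CDR3s with hydrophobic residues at positions 6 and 7 (y axis, percent) among clonotypes joined to TRBJ2 or TRBJ1 segments in each library (x axis), with 95% exact intervals. The TRBJ2 bar is the higher in all 5 libraries, from 0.665% to 1.73%, and the TRBJ1 bar is at most 0.469%.

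The order of segments on the chromosome bears on which D can be used, as background: a TRBJ1 segment is joined to the first D segment, since the second lies downstream of the whole TRBJ1 cluster. In the mouse build GRCm38.p6, the patch release of mm10, TRBD1 lies at chr6:41533201-41533212 and TRBD2 at chr6:41542163-41542176. The TRBJ1 segments lie between them, with TRBJ1-1 at chr6:41533864-41533911 and TRBJ1-7 at chr6:41535642-41535687. The TRBJ2 segments follow TRBD2, from TRBJ2-1 at chr6:41542754-41542803 to TRBJ2-7 at chr6:41543810-41543856. TRBD2 was the D segment listed for 155 members (63.0%), TRBD1 for 9 and none for 82. Among eligible clonotypes these shares were 31.3% for TRBD2, 37.7% for TRBD1 and 31.0% with none. Of clonotypes listed with TRBD2, 1.85% were members (155 of 8374), against 0.0892% of those listed with TRBD1 (9 of 10085).

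The bases showed the same split, but they are no separate support for it, since a D segment is listed from these same bases. CTGGGG also holds TGG, the codon for Trp, so the run is not independent of the pairs. The run CTGGGG, searched on the listed strand, stood in 73.2% of eligible clonotypes listed with TRBD2 and 1.61% of those listed with TRBD1, and CAGGGG in 1.11% and 42.8%. CTGGGG was present in 48.4% of members (119 of 246) and 24.5% of eligible clonotypes, and in 115 members it overlapped codon 6 or codon 7. CAGGGG was present in 3 members, or 1.22%, all of them Treg clonotypes, and in 17.8% of eligible clonotypes. Of clonotypes with CTGGGG, 2.65% were members in Tregs (20 of 756), 0.661% in KO spleen CD8 (4 of 605), 0.92% in KO lung CD4 (6 of 652), 1.1% in KO spleen CD4 (4 of 362) and 2.04% in WT spleen CD8 (85 of 4173). Without it the shares were 0.986%, 0.474%, 0.324%, 0.642% and 0.632% in the same order. The run itself was about as frequent in all libraries, between 20.9% in KO lung CD4 and 26.0% in WT spleen CD8.

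By the listed segment ends, codons 6 and 7 lay between V and J with no base of either in 81 members, reached into J in 86 and into V in 86. They were wholly J-encoded in 20 members and wholly V-encoded in 8, while D bases were not placed. All 12 members of 8 residues reached into J, as in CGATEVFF above, where TRBJ1-1 gives Val and Phe, and 9 of these 12 used TRBJ1-1. Only 6 of the 15 TRBJ1 members were longer than 8 residues.

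Among J segments, TRBJ2-7 supplied 88 members (35.8% of members and 21.6% of eligible clonotypes) and TRBJ2-1 supplied 54 (22.0% and 13%). They were followed by TRBJ2-5 with 38, TRBJ2-4 with 24 and TRBJ2-3 with 15. The share of pairs within a J segment was 1.56% for TRBJ2-1 (interval 1.17 to 2.03), 1.52% for TRBJ2-7 (1.22 to 1.87), 1.2% for TRBJ2-5, 0.945% for TRBJ2-4 and 0.783% for TRBJ2-3. Within TRBJ2-7 the libraries lay close together, at 1.52% in Tregs (12 of 788), 1.2% in KO spleen CD8 (6 of 502), 1.54% in KO lung CD4 (8 of 520), 2.03% in KO spleen CD4 (6 of 295) and 1.52% in WT spleen CD8 (56 of 3679). Within TRBJ2-1 they did not: 3.62% in Tregs (13 of 359, 1.94 to 6.11), 1.03% in KO spleen CD8 (4 of 389), 0.69% in KO lung CD4 (2 of 290), none of 155 in KO spleen CD4 (up to 2.35%) and 1.54% in WT spleen CD8 (35 of 2274). TRBJ2-5 was alike, with 2.52% in Tregs (11 of 437), 0.417% in KO spleen CD8 (1 of 240), 0.51% in KO lung CD4 (2 of 392), 0.526% in KO spleen CD4 (1 of 190) and 1.21% in WT spleen CD8 (23 of 1898). TRBJ2-4 ran otherwise, with 0.588% in Tregs (2 of 340), 0 of 217 in KO spleen CD8 (up to 1.69%), 0 of 318 in KO lung CD4 (up to 1.15%), 2.54% in KO spleen CD4 (5 of 197) and 1.16% in WT spleen CD8 (17 of 1469). In TRBJ2-3 the shares were 1.07% in Tregs (3 of 281), 0.581% in KO spleen CD8, 0.392% in KO lung CD4, 0 of 122 in KO spleen CD4 and 0.921% in WT spleen CD8 (10 of 1086). With counts this small, the intervals of all libraries overlap within each of these J segments, so the counts separate no libraries within a segment.

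Most V segments supplied members. Members came from 22 of the 25 V segments among eligible clonotypes, and 9 segments supplied at least 5% of them each. Some V calls rest on few bases: in 10 members the listed V end lies at base 5 or less of the CDR3, counted from 0, among them both members listed with TRBV21. RefSeq marks TRBV22, with 3 members, and TRBV29, with 4, as pseudogenes. The 9 were TRBV16 (30 members, chr6:41151791-41152230), TRBV13-2 (29, chr6:41121396-41121832), TRBV3 (25, chr6:41048394-41048824), TRBV12-2 (20), TRBV12-1, TRBV13-1 and TRBV19 (16 each), and TRBV13-3 and TRBV14 (14 each). Pooled over libraries, the share of pairs ran from 0.721% within TRBV19 (interval 0.413 to 1.17) to 1.6% within TRBV12-1 (0.916 to 2.58), and the intervals of these 9 overlapped. These 9 were chosen by their number of members, so their overlap does not speak for segments with low shares. TRBV1 had 4 members among 1605 eligible clonotypes, 0.249% (0.0679 to 0.637). Its interval lay below those of TRBV3, TRBV16 and TRBV13-2, among others. TRBV5 had 0.526% (8 of 1520) and TRBV29 0.383% (4 of 1044). TRBV1, TRBV13-2 and TRBV29, used often by NKT cells, together supplied 15% of members and 19.2% of eligible clonotypes. TRBV13-2, TRBV13-3 and TRBV19, used often by MAIT cells, supplied 24% and 23.3%.

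Within V segments the KO spleen CD8 library stood mostly below the WT one. Of 12 V segments with at least 100 eligible clonotypes in both libraries, a minimum set after the values were seen, the share was lower in KO spleen CD8 in 11, in 7 of them because no member was found. TRBV16 had 2 of 281 in KO and 23 of 1609 in WT spleen CD8 (0.712% and 1.43%), and TRBV19 had 0 of 191 in KO and 7 of 1072 in WT. The exception was TRBV3, with 4 of 136 in KO (2.94%, 0.807 to 7.36) and 12 of 942 in WT (1.27%, 0.66 to 2.21). In Tregs the share was above that of KO lung CD4 cells in 11 of 13 such segments, 6 of them with no lung member, below it in 1, and at 0 in both in 1. Against KO spleen CD4 cells it was above in 6 of 8, 5 of them with no spleen CD4 member, below in 1 and at 0 in both in 1. Where 1 library has 0 members in a segment, any member in the other sets the direction. All these tallies, that of KO and WT spleen CD8 too, therefore carry little. TRBV3 had 7 of 343 members in Tregs, 2 of 303 in KO lung CD4 and 0 of 133 in KO spleen CD4. TRBV13-2 had 5 of 336, 2 of 314 and 4 of 151 in those libraries.

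The share of members was highest at the shortest length and, above 12 residues, grew with length in the pooled counts. Pooled over libraries, 12 of 28 CDR3s of 8 residues were members (42.9%, interval 24.5 to 62.8), none of 64 CDR3s of 9 residues and none of 490 of 10 residues was a member, and the share was 1.13% at 11 residues, 0.406% at 12, 0.619% at 13, 0.911% at 14, 1.24% at 15, 2.05% at 16 and 3.4% at 17. Above that stood 2 members of 18 residues, the longest seen. The growth came from Tregs and WT spleen CD8 cells, which hold most of the long members, and was not seen in the 3 peripheral KO libraries, as the bands below give. Tregs had the most long CDR3s: 15 to 20 residues were found in 24.3% of their eligible clonotypes, against 16.3% in KO spleen CD8, 14.1% in KO lung CD4, 12.1% in KO spleen CD4 and 20.8% in WT spleen CD8. Treg members averaged 14.3 ± 1.82 residues (SD over 47 members) and the other eligible Treg clonotypes 13.6 ± 1.38. In KO spleen CD8 these means were 12.8 and 13.3, in KO lung CD4 12.9 and 13.1, in KO spleen CD4 13 and 13.1, and in WT spleen CD8 13.6 and 13.3.

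The shares of the libraries lay furthest apart among long CDR3s. Of CDR3s of 15 to 20 residues, 2.94% were members in Tregs (25 of 850, interval 1.91 to 4.31), 0.489% in KO spleen CD8 (2 of 409, 0.0593 to 1.76), 0.454% in KO lung CD4 (2 of 441, 0.055 to 1.63), 0.515% in KO spleen CD4 (1 of 194, 0.013 to 2.84) and 1.53% in WT spleen CD8 (51 of 3337, 1.14 to 2.0). At 8 to 12 residues the shares were 0.829%, 0.733%, 0.634%, 0.835% and 0.772% in the same order, all within one another's intervals. At 13 and 14 residues they were 0.833% in Tregs, 0.424% in KO spleen CD8, 0.346% in KO lung CD4, 0.748% in KO spleen CD4 and 0.904% in WT spleen CD8. Among CDR3s of 15 to 20 residues the Treg interval overlapped those of KO spleen CD4 and WT spleen CD8. It did not overlap those of KO spleen CD8 and KO lung CD4. Several long Treg members are sequences of 1 read that lie 1 base from a more read member. The share of this band without them was not computed. The bands were set after the shares at each length had been seen.

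**Figure D3:**
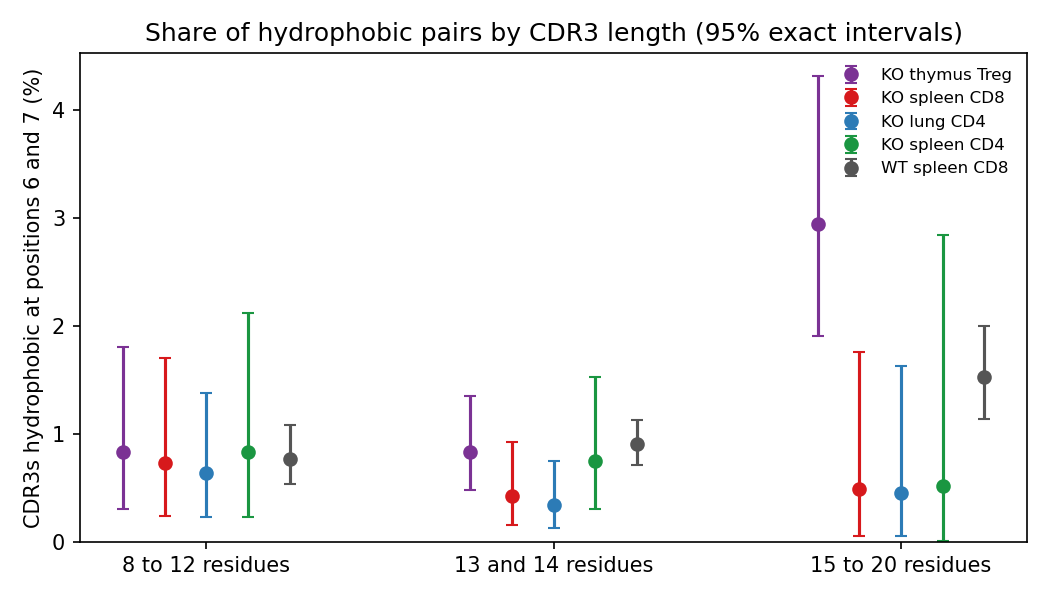
Share of CDR3s with hydrophobic residues at positions 6 and 7 (y axis, percent) in 3 bands of CDR3 length (x axis), with 1 point a library and 95% exact intervals. At 8 to 12 residues the points lie between 0.634% and 0.835%, and at 15 to 20 residues the Treg point stands at 2.94%, above the other 4. Some of the long Treg members are sequences of 1 read that lie 1 base from a more read one.

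For spleen CD8 cells of KO over WT mice, the sole pair of libraries that differs in genotype, the ratio of shares was 0.52 (interval 0.296 to 0.914). It was 0.516 within V segments, 0.528 within CDR3 lengths and 0.544 (0.31 to 0.957) within J segments. Within V segment and length together it was 0.565 (0.313 to 1.02), with the upper bound just above 1. Pairs with Trp had a ratio of 0.453 (7 in KO and 99 in WT, 0.211 to 0.973) and those without Trp 0.63 (6 and 61, 0.273 to 1.46). Hydrophobic residues at position 6 did not move the same way: position 6 alone was hydrophobic in 13.8% of KO and 12% of WT spleen CD8 clonotypes (ratio 1.15, 1.03 to 1.28), and position 7 alone in 13.5% and 15.6% (0.861, 0.775 to 0.957).

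Between Tregs and KO lung CD4 cells the ratio was 3.0 (1.65 to 5.43), and between Tregs and KO spleen CD4 cells 1.8 (0.959 to 3.39). Within V segment and length together these were 2.38 (1.23 to 4.61) and 1.47 (0.696 to 3.11). Pairs with Trp made up 26 of the 47 Treg members, 9 of the 14 in KO lung CD4 and 11 of the 12 in KO spleen CD4. Their share of eligible clonotypes was thus 0.744% in Tregs, 0.289% in KO lung CD4 and 0.684% in KO spleen CD4, a ratio of 2.58 (1.21 to 5.49) to lung and of 1.09 (0.539 to 2.2) to spleen. Pairs without Trp numbered 21 in Tregs, of 9 kinds such as Val-Leu and Leu-Val (5 clonotypes each), against 5 in KO lung CD4 and 1 in KO spleen CD4. The ratios were 3.75 (1.42 to 9.93) to lung and 9.67 (1.3 to 71.8) to spleen, the last resting on 1 spleen clonotype. Of the 5 Treg Leu-Val clonotypes, 3 are a sequence of 5 reads and its variants by 1 base, with 1 read each. Leaving out every clonotype 1 base from a more read one of the library, whatever its V and J, left 3 Leu-Val clonotypes and 17 pairs without Trp in Tregs, against 4 in KO lung CD4 and 1 in KO spleen CD4. The ratio of all pairs was then 2.73 (1.43 to 5.2) for Tregs over KO lung CD4 and 1.75 (0.875 to 3.49) for Tregs over KO spleen CD4.

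Among conventional KO cells no pair of libraries was separated by the counts. The ratio was 0.696 (0.318 to 1.52) for KO spleen CD8 over KO spleen CD4 and 0.602 (0.279 to 1.3) for KO lung CD4 over KO spleen CD4. Each of these libraries has 12 to 14 members, and both intervals allow ratios well below and above 1.

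**Figure D4:**
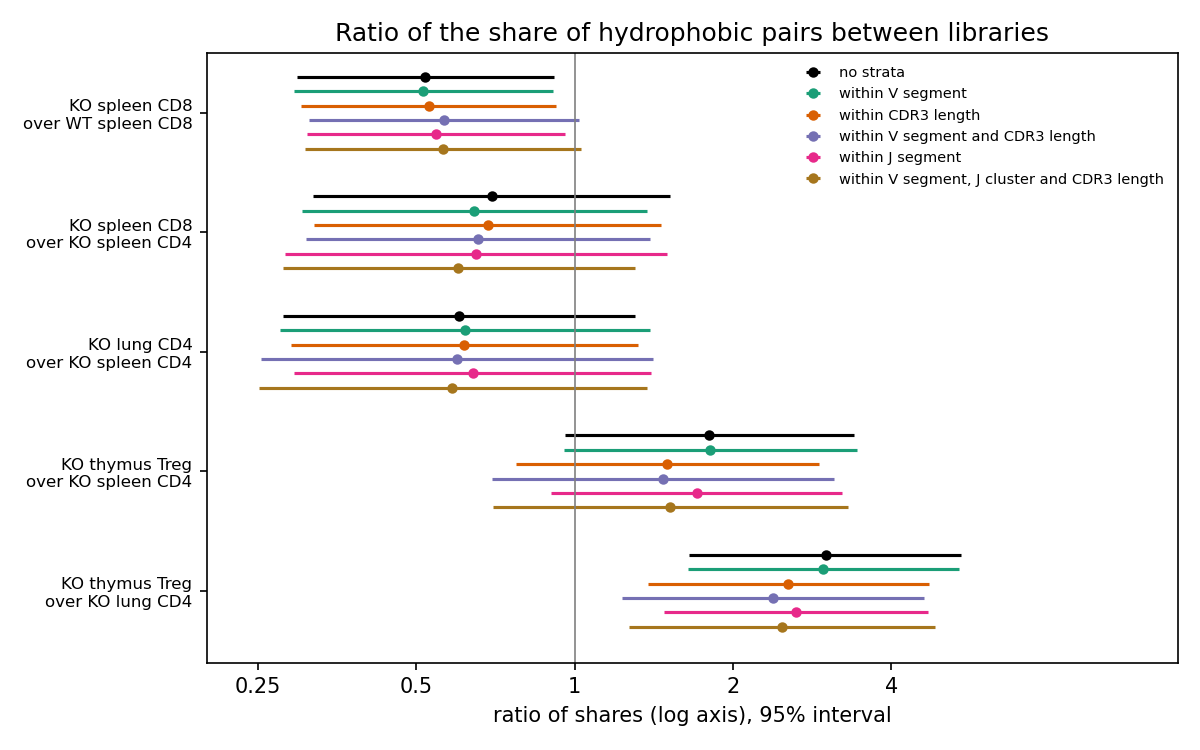
Ratio of the share of hydrophobic pairs between 2 libraries (x axis, log scale) for the 5 comparisons (y axis), the first-named library over the second, with 95% intervals. Black points use no strata and coloured points are Mantel-Haenszel ratios within V segments, CDR3 lengths, J segments and their combinations. The intervals of Tregs over KO lung CD4 stay above 1 in all 6 settings drawn, from 2.38 to 3.0, and those of the 3 comparisons with KO spleen CD4 reach across 1.

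To read these ratios against other residues, the share of each of the 20 residues at position 6 and at position 7 was compared between the same libraries, leaving out residues with fewer than 10 clonotypes in the pair. For KO over WT spleen CD8, 9 of 38 residue shares (23.7%) were at least 20% lower in KO, and 4 (10.5%) at least 25% higher. Of the 14 hydrophobic ones, 5 were lower and 3 higher, and their median ratio was 0.96 against 0.988 for all 38. The lower ones were Phe at position 6 and Phe, Leu, Met and Val at position 7, among them Leu at 3.27% in KO and 4.9% in WT (ratio 0.668, 0.534 to 0.835) and Val at 0.439% and 1.12% (0.391, 0.213 to 0.718). Trp at position 6 was at 6.95% in KO and 5.5% in WT (1.26, 1.08 to 1.48).

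For Tregs over KO lung CD4 cells, 13 of 37 residue shares (35.1%) were at least 25% higher in Tregs and 5 (13.5%) at least 20% lower, and of the 13 hydrophobic ones 7 were higher and 0 lower, with a median ratio of 1.32 against 1.06 for all. Val at position 7 stood at 1.77% in Tregs and 0.705% in lung (2.52, 1.55 to 4.08), and Val at position 6 at 2.6% and 1.44% (1.81, 1.27 to 2.57). For Tregs over KO spleen CD4 cells, 12 of 36 (33.3%) were higher and 6 (16.7%) lower, and 5 and 1 of the 12 hydrophobic ones, with median ratios of 1.09 for these and 1.04 for all. Phe at position 7 was found in 24 Treg clonotypes and in none of 1609 in KO spleen CD4. For KO spleen CD8 over KO spleen CD4, 6 of 33 (18.2%) were higher and 10 (30.3%) lower, with 3 of 10 hydrophobic ones in either direction. For KO lung over KO spleen CD4 cells, 4 of 35 (11.4%) were higher and 6 (17.1%) lower, with 1 and 4 of 11 hydrophobic ones.

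Neighbouring positions put positions 6 and 7 in scale. In CDR3s of 13 to 15 residues, positions 5 and 6 were both hydrophobic in 5.01% of Treg, 6.14% of KO spleen CD8, 3.87% of KO lung CD4, 5.06% of KO spleen CD4 and 5.46% of WT spleen CD8 clonotypes. At positions 6 and 7 this was 1.19%, 0.468%, 0.29%, 0.736% and 0.982% in the same order, and at positions 8 and 9 it was 1.39%, 0.644%, 0.338%, 0.276% and 0.71%. At positions 9 and 10 the Treg share was 1.35% (interval 0.939 to 1.89), against 0.338% in KO lung CD4 (0.136 to 0.696) and 0.644% in KO spleen CD4 (0.259 to 1.32). The higher Treg share was thus not limited to positions 6 and 7.

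**Figure D5:**
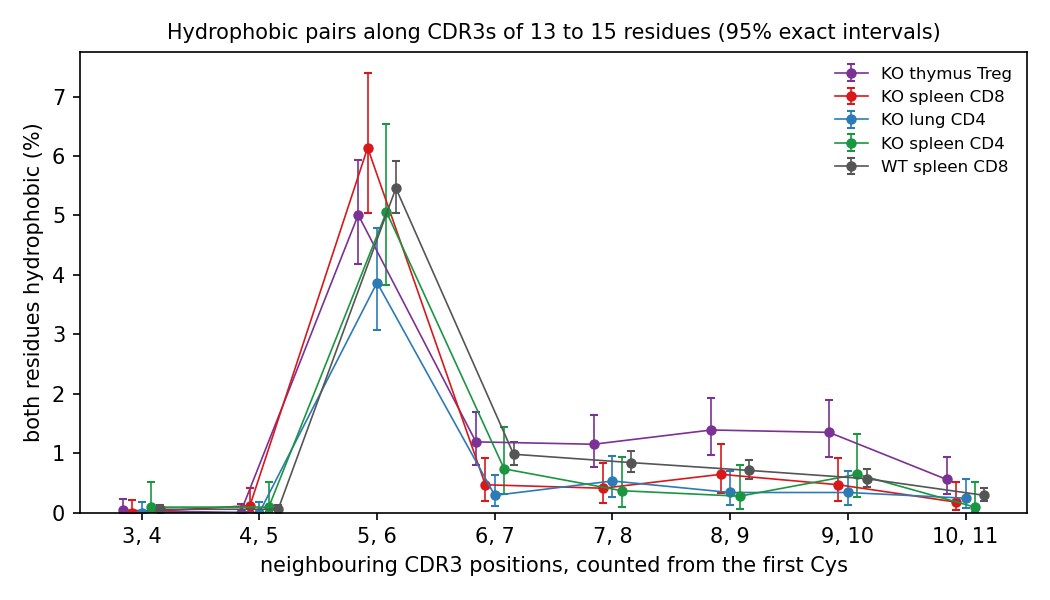
Share of CDR3s of 13 to 15 residues with hydrophobic residues at both of 2 neighbouring positions (y axis, percent) along the CDR3 (x axis, positions counted from the first Cys), 1 line a library with 95% exact intervals. All libraries peak at positions 5 and 6, between 3.87% and 6.14%. From positions 6 and 7 to positions 10 and 11 the Treg line is the highest. Its interval overlaps that of WT spleen CD8 at positions 6 and 7 and at positions 7 and 8.

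Rearrangements listed as out of frame or with a stop were read too. Sequences with a frame shift or a stop, starting with a Cys codon and 24 to 60 bases long, were read in the V frame through codon 7. Hydrophobic pairs were found in 0.95% in Tregs (4 of 421, interval 0.259 to 2.41), 1.23% in KO spleen CD8 (3 of 243, 0.255 to 3.57), 1.63% in KO lung CD4 (5 of 306, 0.533 to 3.77), 1.27% in KO spleen CD4 (2 of 157, 0.155 to 4.53) and 1.82% in WT spleen CD8 (19 of 1044, 1.1 to 2.83). These intervals all overlapped, and the counts are too small to order the libraries. Of the rows read, 18.8% in Tregs, 27.2% in KO spleen CD8, 23.9% in KO lung CD4, 22.3% in KO spleen CD4 and 47% in WT spleen CD8 lay 1 base, changed, gained or lost, from a more read productive sequence of the same library. Of the pairs, this held for 0 of 4, 0 of 3, 3 of 5, 1 of 2 and 6 of 19 in that order. Whether such rows are copies with errors was not tested.

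By reads, members took a smaller share than by clonotypes in the 4 KO libraries. They held 1.14% of eligible reads in Tregs (2182 reads), 0.0931% in KO spleen CD8 (177), 0.188% in KO lung CD4 (245), 0.357% in KO spleen CD4 (337) and 1.06% in WT spleen CD8 (1604). The median member had 21 reads in Tregs, 8 in KO spleen CD8, 7.5 in KO lung CD4, 17 in KO spleen CD4 and 8 in WT spleen CD8, while the other eligible clonotypes had medians of 34, 8, 11, 28 and 7. Medians in KO and WT spleen CD8 were thus alike for members and others. The largest KO spleen CD8 clonotype that was no member had 14668 reads, against 53 for the largest member. Whether large clones account for the low KO spleen CD8 read share was not tested. Among the 100 most read eligible clonotypes of each library there was 1 member in Tregs and 0 in the other 4. With member shares of 0.449% to 1.35% of clonotypes, 100 clonotypes are too few to tell whether members are rarer there.

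The leading members by reads were the following. In Tregs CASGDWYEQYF had 215 reads and rank 85 among eligible clonotypes, the TRBV19 member shown above 190 and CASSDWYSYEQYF (TRBV13-3, TRBJ2-7) 173. In KO spleen CD8 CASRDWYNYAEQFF had 53, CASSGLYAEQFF 29 and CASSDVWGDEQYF (TRBV13-1, TRBJ2-7) 22. In KO lung CD4 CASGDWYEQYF had 115, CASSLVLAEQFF 26 and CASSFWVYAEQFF (TRBV3, TRBJ2-1) 21. In KO spleen CD4 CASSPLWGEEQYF had 112, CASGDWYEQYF 91 and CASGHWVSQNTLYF 35. In WT spleen CD8 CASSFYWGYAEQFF had 42, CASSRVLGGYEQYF 41 and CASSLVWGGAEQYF (TRBV12-2, TRBJ2-7) 33. Apart from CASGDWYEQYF the leading members differed in each library.

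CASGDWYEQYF was the sole member CDR3 found in 3 or more libraries. It was made of TRBV13-2 and TRBJ2-7 each time, with 215 reads in Tregs, 115 in KO lung CD4, 91 in KO spleen CD4 and 6 in WT spleen CD8, and was not listed in KO spleen CD8. It had 3 nucleotide forms, shown above, which differ only in the codons for Gly and Asp before the pair: KO Treg, KO spleen CD4 and WT spleen CD8 shared 1, KO lung CD4 had another, and WT spleen CD8 also had the remaining form with 1 read. Without it the member share of reads was 1.02% in Tregs and 0.0998% in KO lung CD4. By amino acid sequence the 246 members were 225 distinct CDR3s, of which 6 were in more than 1 library. How many of all eligible CDR3s were shared by amino acid sequence was not counted.

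Leaving out every clonotype listed in another library gave shares of 1.39% in Tregs, 0.599% in KO spleen CD8, 0.493% in KO lung CD4, 0.736% in KO spleen CD4 and 1.03% in WT spleen CD8. The ratio of KO to WT spleen CD8 was then 0.581, with an interval of 0.323 to 1.04 that includes 1, and that of Tregs to KO lung CD4 was 2.81 (1.52 to 5.19).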

How the data were processed

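The series has 42 samples of 14 groups from 6 mice, and 5 libraries were used, while the other 37 samples were not analysed here. Per the labels' protocols, TCRβ libraries came from a SMARTer Mouse TCR a/b Profiling Kit. The submitters' processing notes name mm10 as the build. The aligner and clonotype caller were not given in the sources used here. Per the file headers, each deposited row gives a read count, that count as a fraction of the library, the CDR3 in bases and residues, and the V, D and J segments. The deposited segment ends are positions in the CDR3 counted from 0. All columns of per-sample values in these files were mapped.

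Shares of clonotypes, exact Clopper-Pearson intervals, ratios of shares with log-scale intervals and Mantel-Haenszel ratios were computed with Python 3.11.15, pandas 2.3.3, NumPy 2.4.6 and SciPy 1.17.1, and figures drawn with matplotlib 3.10.9. The ratio within J segments was tested on simulated members in the Treg and KO lung CD4 libraries. The simulated shares were above those observed in KO lung CD4. Ratios within V segment and length, and the other comparisons, were not simulated. Segment coordinates come from RefSeq, GRCm38.p6. Named were V and J segments with at least 5% of members, the 10 most frequent pairs, the 3 most read members of each library, and any CDR3 in 3 or more libraries. Residue shares needed 10 clonotypes and were counted when at least 25% higher or 20% lower. Alternatives were read weights, at least 2 reads, amino acid clonotypes, equal depth, near-copies left out, other residue sets, lengths and ends, no J-encoded codon, and strata of V and length. Those by J, by V with J cluster and length, with TRBJ2 alone, without shared clonotypes and without near-copies of any V and J were chosen after seeing the data. The members and lists were chosen with earlier results of these data known. Intervals cover counting error only.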

Additional observations from a re-analysis of the deposited data

How the results depend on the processing

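Of 90 ratios recomputed under alternatives, 87 stayed within the interval of the reported ratio and 3 moved out of it. Of 65 shares 58 stayed and 7 moved, and no direction reversed among the ratios whose interval left out 1. With reads as weights the share was 0.0931% in KO spleen CD8, 0.188% in KO lung CD4 and 0.357% in KO spleen CD4, and the ratio was 0.0879 for KO over WT spleen CD8, 0.261 for KO spleen CD8 over KO spleen CD4 and 6.04 for Tregs over KO lung CD4. Without Tyr and Cys in the residue set the share was 0.973% in Tregs, 0.311% in KO spleen CD4 and 0.624% in WT spleen CD8. With TRBJ2 alone it was 1.36% in WT spleen CD8. Over the 17 settings that give an interval, the ratio ran from 0.427 to 0.64 for KO over WT spleen CD8, with 1 outside the interval in 12, from 2.38 to 3.31 for Tregs over KO lung CD4, outside in 17, and from 1.47 to 3.13 for Tregs over KO spleen CD4, outside in 4. For KO spleen CD8 over KO spleen CD4 it ran from 0.601 to 1.28 and for KO lung over KO spleen CD4 from 0.558 to 1.13, with 1 inside every interval. The cause of these shifts was not tested.

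No paired analysis was possible because each group has 1 library here and no mouse supplied both libraries of a comparison. For the same reason no replicate was left out. Mouse, organ and lineage cannot be told apart between these libraries beyond what the labels give. The 12 to 14 members in each peripheral KO library limit the precision of their shares.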
